A study of Mus musculus with 4 samples.

Results

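Signals of the TNF receptor and ligand superfamily were examined in mouse CD4+CD25+ T cells sorted as regulatory T cells (Tregs) from spleen and thymus. Members were the non-control probes of the array whose gene name was Tnfrsf or Tnfsf followed by a digit, together with Fas, Fasl, Cd27, Cd40, Cd70, Ltbr, Lta and Ltb. They came to 38 genes of the 22296 genes compared, 24 receptors and 14 ligands, measured by 49 probes on 68 spots of each array. Of the 38, 28 had 1 probe and 10 had several, and a gene with several was represented by its brightest probe.

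Ligands of this superfamily are made mostly as trimeric membrane proteins and bind receptors on neighbouring cells. Receptors without a death domain recruit TRAF adaptors, which lead to the canonical and the alternative NF-kappaB pathway, whereas receptors with a death domain can start caspase-driven cell death. In Tregs, Tnfrsf4 (OX40), Tnfrsf18 (GITR) and Tnfrsf1b (a TNF receptor) are known costimulatory receptors, and signals through them during thymic development promote the maturation of Treg precursors.

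The study compared Tregs of wild-type (WT) mice with Tregs of mice labelled deltaDC, from spleen and from thymus, with 1 array for each of the 4 combinations. All mice were male and of the C57BL/6 strain; the labels give neither their ages nor the alleles behind deltaDC, a name used in the field for mice that lack conventional dendritic cells because Cre driven by the CD11c promoter switches on a diphtheria toxin subunit. Cells of 3 mice per genotype were pooled before sorting of live CD4+ CD25+ cells, so that Foxp3, the defining transcription factor of Tregs, was not part of the sort. Splenic cells were first enriched for CD4+ T cells by negative selection and thymic cells by removal of CD8+ cells, so enrichment differed between the organs.

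Each array hybridized Cy3-labelled RNA, and all 4 sat on 1 slide that was scanned at 1 time. Raw 75th-percentile intensities of the arrays ran from 340 to 418, between 48.7% and 50.7% of spots were well above background, and no spot was saturated. Signals are given as scanner intensities after every array had been brought to the same 75th percentile of 388, and always in the order of the WT and the deltaDC spleen array, then the WT and the deltaDC thymus array. On this scale the lowest signal that counted as well above background was 19.5, 15.0, 15.7 and 15.8. Signals of different genes cannot be ranked against each other, because probes differ in how they bind.

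With 1 array of pooled cells in each group there was no replicate, and no difference between 2 arrays has a p-value. Most members had 1 spot per array, so the error given with a log2 difference was not measured on their own probe. It was taken from probes printed on several spots of an array, pooled by signal. The spread between repeat spots of those probes had an SD of 0.36 for signals under 50, 0.13 between 50 and 200, 0.08 between 200 and 1000 and about 0.05 above 1000. It covers the array surface only, not mice, sorts or labelling. A gene was called different when both arrays were well above background and the signals differed at least 2-fold; where only 1 array was above background, a lower bound of the fold is given instead.

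All 10 genes of a Treg identity list were above background on all 4 arrays, and Foxp3 had signals of 11650, 10890, 8853 and 10550. In deltaDC spleen, where several members described below were high, Lrrc32 was lower than in WT by 2-fold or more, with a difference of -1.07, and Il2ra (CD25, used in the sort) and Izumo1r stood at -0.90 and -0.67, against a list median of -0.13. Markers of other cells were also present. The summed signal of 9 NK cell genes was 4146, 32400, 13520 and 16120, that of 8 genes of gamma-delta T, NKT and innate lymphoid cells 600, 5845, 1896 and 1703, and that of 11 B cell genes 2310, 2278, 3755 and 7624. A sum over probes is carried by its brightest genes: Nkg7 (2587, 23600, 7320 and 7531) and Gzma (384.5, 1748, 5438 and 7355) in the NK list, and Cd79b (1951, 1833, 2647 and 3550) in the B cell list. From WT spleen to WT thymus, 3 of 8 measured NK genes were 2-fold higher and 1 was 2-fold lower. The 9 immature thymocyte genes summed to 7101, 6412, 61520 and 57330 and the 10 proliferation genes to 5232, 21780, 22540 and 18290. Of the 9 conventional dendritic cell genes, 2, 6, 7 and 6 were above background, with Xcr1 and Clec9a below it on every array.

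**Figure D1:**
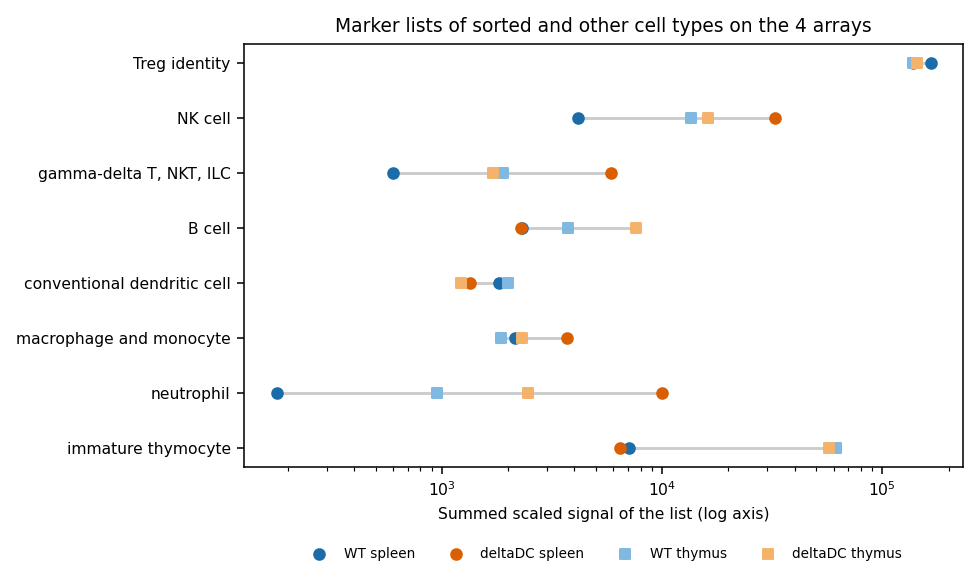
Summed scaled signal (scanner intensity, log axis) of 8 marker lists, with 1 point for each of the 4 arrays. The deltaDC spleen array is highest for the NK cell list at 32400, the neutrophil list at 9960 and the macrophage and monocyte list at 3690, and the deltaDC thymus array is highest for the B cell list at 7624.

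Of the 38 members, 29 were well above background on all 4 arrays, as were 55.1% of all genes. Another 5 members, Cd40, Cd70, Ltbr, Tnfrsf21 and Tnfsf4, were above background on 3 arrays and below it on the WT spleen array alone, a pattern found in 2.74% of all genes that were above background on at least 3 arrays. The lowest signal above background was highest on that array, at 19.5, and the deltaDC spleen signal of Tnfrsf21, 17.4, lay under it. Tnfrsf17, the B cell maturation antigen of plasma cells, was above background on the WT thymus array alone, and Tnfrsf19, a receptor best known from epithelium and embryonic tissue, on the deltaDC thymus array alone. Tnfrsf11b (osteoprotegerin, a soluble decoy of the ligand RANKL) and Tnfsf18 (the ligand of Tnfrsf18) were not well above background on any array. A 2-fold difference or a 2-fold bound in any of the 4 comparisons was found for 13 of the 38 members, all of them among those above background on at least 1 array, where 22.9% of all genes had one. The other 25 members had none.

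**Figure D2:**
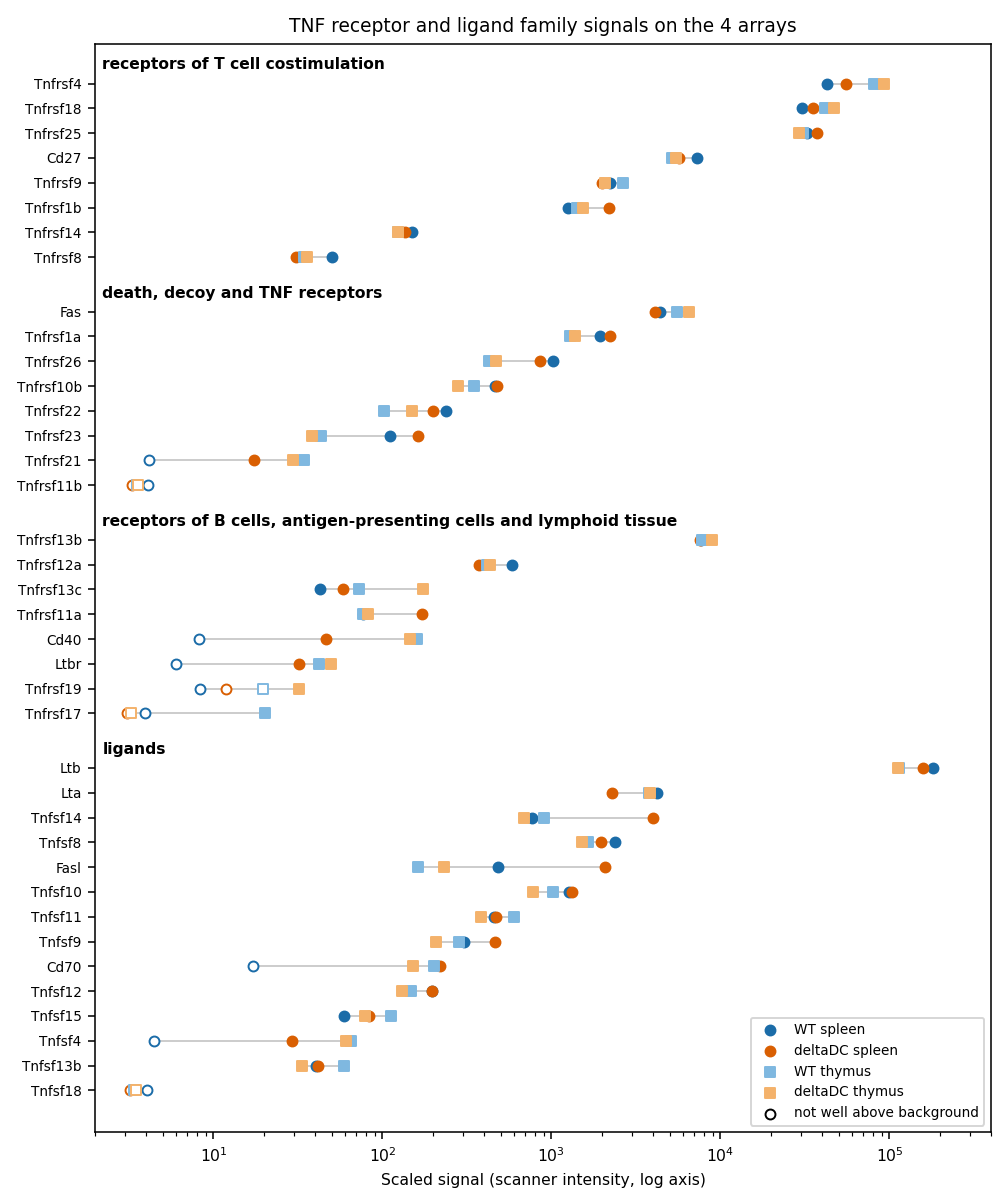
Scaled signal (scanner intensity, log axis) of the 38 members on the 4 arrays, grouped by role; circles are spleen, squares thymus, and open symbols were not well above background. The costimulatory receptors lie close together across arrays, whereas Fasl and Tnfsf14 have their highest points on the deltaDC spleen array at 2065 and 3984, and 5 members have an open circle for WT spleen alone.

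In spleen, the ligand Fasl was 4.25-fold and the ligand Tnfsf14 5.18-fold higher in deltaDC than in WT Tregs, and the ligand Cd70 was at least 11.3-fold higher. The other 9 ligands measured stayed within 2-fold, and the ligands' median was 0.04. The receptors Tnfrsf11a and Cd40 were 2.23-fold and at least 2.37-fold higher, and no measured member was 2-fold lower. When the background was modelled with an offset (normexp), which shrinks differences of dim genes, the log2 difference of Cd40 was 0.35 and that of Cd70 1.59, both below these bounds. Spleen signals of 29 members were measured in both genotypes. Of these, 3 were higher in deltaDC by 2-fold or more, against 6.41% of all genes measured, and 0 were 2-fold lower, against 2.0%. The members' median log2 difference was 0.03 and that of all genes -0.005. Among the 5 members above background on the deltaDC spleen array only, the bound reached 2-fold for 2. Of all 1205 genes above background on only 1 spleen array, whichever it was, 22.1% reached a 2-fold bound towards deltaDC. Genes above background in WT alone are part of those 1205, so the 22.1% is not a matched rate for the 5 members. In bulk RNA of sorted pools, a different number of cells of some type and a different amount of RNA per cell cannot be told apart.

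Fasl encodes Fas ligand, the membrane protein by which cytotoxic lymphocytes kill cells bearing Fas. Its probe, at chr1:163711056-163711115 (minus strand, mm9), gave signals of 486, 2065, 163 and 231. The deltaDC spleen array was highest, the WT spleen array next, and both thymus arrays lowest. The log2 difference between genotypes was 2.09 ± 0.10 (spot error) in spleen and 0.50 ± 0.15 in thymus. The receptor Fas did not share this pattern: its signals were 4371, 4077, 5513 and 6478, with genotype differences of -0.10 ± 0.06 in spleen and 0.23 ± 0.06 in thymus.

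Tnfsf14 (LIGHT), a ligand of Tnfrsf14 (HVEM) and of the lymphotoxin beta receptor Ltbr, had signals of 769.6, 3984, 905 and 688 at its probe chr17:57329192-57329251 (minus strand, mm9). Only the deltaDC spleen array stood apart. The difference between genotypes was 2.37 ± 0.10 in spleen and -0.40 ± 0.11 in thymus. Of its receptors, Tnfrsf14 stayed within 150, 137, 124 and 124, and Ltbr was dim at 6.04 (not above background), 32.2, 42.1 and 49.3, being at least 1.65-fold higher in deltaDC spleen.

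Cd70, the ligand of the costimulatory receptor Cd27, had signals of 17.2 (not above background), 219.7, 203 and 151 at chr17:57285465-57285524 (minus strand, mm9). The WT spleen array was the low one, and the other arrays lay close together. Its receptor Cd27 was bright on every array, at 7253, 5671, 5193 and 5491, with a difference of -0.36 ± 0.08 between genotypes in spleen. Tnfsf9, the ligand of Tnfrsf9 (CD137), was measured at 302, 465, 285 and 206, a difference of 0.62 ± 0.11 in spleen and -0.47 ± 0.11 in thymus. Tnfsf9, Cd70 and Tnfsf14 lie next to each other on chromosome 17, with 38.3 kb between the first pair of probes and 43.7 kb between the second, and each had a higher signal on the deltaDC than on the WT spleen array.

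The ligand that went furthest the other way was Lta, lymphotoxin alpha, which lymphocytes secrete or display together with lymphotoxin beta. Its probe was printed on 10 spots and read 4235, 2276, 3802 and 3848, so that the deltaDC spleen array was the low one. The spleen difference of -0.90 ± 0.03 corresponds to 1.86-fold lower in deltaDC, under the 2-fold limit but large against the spot error. Ltb, whose product anchors lymphotoxin at the membrane and whose probe lies 7.12 kb away, read 180300, 158900, 113300 and 111800, a spleen difference of -0.18 ± 0.07. The remaining ligands measured in spleen, Tnfsf8, Tnfsf10, Tnfsf11, Tnfsf12, Tnfsf13b and Tnfsf15, differed by less than 0.5 on the log2 scale between genotypes.

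Among the receptors in spleen, Tnfrsf11a (RANK, the receptor of RANKL on osteoclast precursors, dendritic cells and thymic epithelium) read 76.5, 170.5, 76.8 and 82.7 at chr1:107741892-107741951 (plus strand, mm9). The deltaDC spleen array was more than 2-fold above every other array, and those agreed within the spot error. The spleen difference of 1.16 ± 0.19 became 0.73 with the normexp background. Cd40, the receptor on B cells and dendritic cells for the helper signal of T cells, read 8.23 (not above background), 46.2, 159 and 146, lowest in WT spleen and highest in both thymus arrays. Tnfrsf1b had the largest spleen difference of the costimulatory receptors, with 1250, 2204, 1414 and 1546 and a difference of 0.82 ± 0.08, or 1.76-fold. Tnfrsf12a (the receptor of TWEAK) was lower in deltaDC spleen, 371 against 582, a difference of -0.65 ± 0.11.

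Fasl, Tnfsf14 and Tnfrsf11a each had a deltaDC spleen signal that exceeded every other array's at least 2-fold, which holds for 2.47% of the genes above background on all 4 arrays. Marker lists of NK cells and of gamma-delta T, NKT and innate lymphoid cells moved the same way. The B cell list did not: 0 of 5 measured genes were 2-fold higher in deltaDC spleen, with a median of -0.09. In spleen, 6 of 8 measured NK cell genes were at least 2-fold higher in deltaDC, with a median log2 difference of 2.69, and 6 of 7 genes of the gamma-delta T, NKT and innate lymphoid list, with a median of 3.70. The NK receptor Klrb1c read 85.2, 2549, 49.5 and 102, and Ncr1, which defines NK cells and some innate lymphoid cells, 16.8 (not above background), 72.2, 3.90 and 11.5 (both not above background). Neutrophil genes summed to 178, 9960, 954 and 2465, with 2, 8, 6 and 6 of 9 above background, and 4 of 8 measured macrophage and monocyte genes were at least 2-fold higher in deltaDC spleen. All 9 proliferation genes measured in spleen were also higher in deltaDC. The part of these cells, and of cycling cells, in the signals of Fasl, Tnfsf14, Cd70, Cd40 and Tnfrsf11a was not tested.

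**Figure D3:**
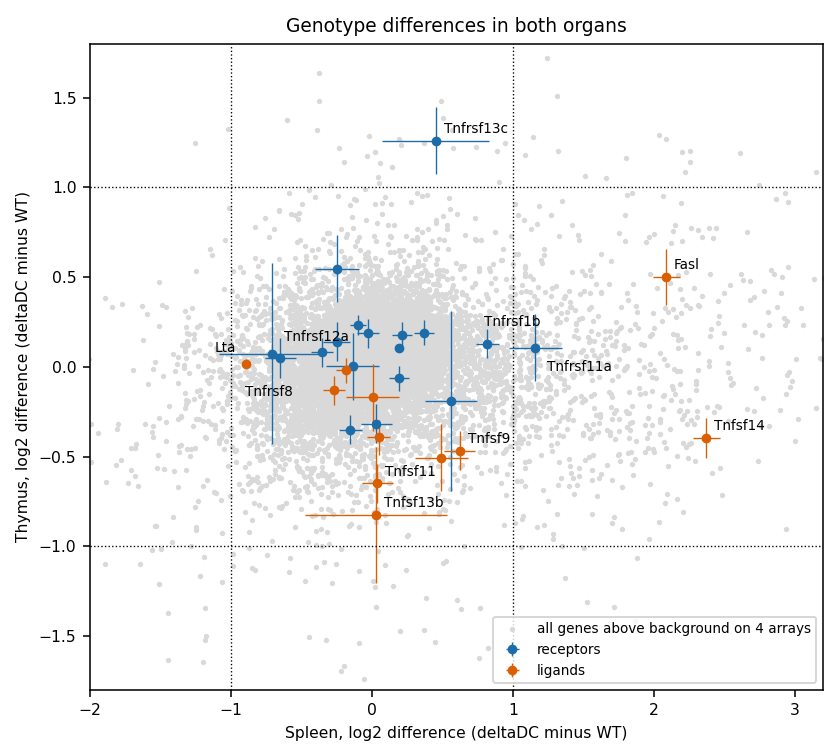
Log2 difference between deltaDC and WT in spleen (horizontal) against that in thymus (vertical) for the 29 members above background on all 4 arrays; bars are spot errors, dotted lines mark 2-fold, and grey points are all genes above background on 4 arrays, those beyond the axes not being drawn. Fasl and Tnfsf14 lie far to the right at 2.09 and 2.37 in spleen, Tnfrsf13c alone lies above the upper line at 1.26 in thymus, and most ligands lie below 0 in thymus.

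The upstream sequences of both ligands and of Fas are shown because Fasl and Tnfsf14 had the largest measured genotype differences and Fas is the receptor of Fasl. Each is the 250 bases before the start of the gene in RefSeq on GRCm38.p6, read 5′ to 3′ along the gene: Fasl at chr1:161788496-161788745 (minus strand), Tnfsf14 at chr17:57194182-57194431 (minus strand) and Fas at chr19:34290409-34290658 (plus strand). Capitals mark every match, on either strand, to the AP-1 motif TGANTCA, the NFAT core TGGAAA, the T-box motif GGTGTGA or the kappaB motif.
Fasl: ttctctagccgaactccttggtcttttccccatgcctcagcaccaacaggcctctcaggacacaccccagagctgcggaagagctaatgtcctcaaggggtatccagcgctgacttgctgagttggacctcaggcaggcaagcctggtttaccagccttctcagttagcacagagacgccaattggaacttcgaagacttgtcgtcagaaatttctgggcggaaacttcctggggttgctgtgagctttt
Tnfsf14: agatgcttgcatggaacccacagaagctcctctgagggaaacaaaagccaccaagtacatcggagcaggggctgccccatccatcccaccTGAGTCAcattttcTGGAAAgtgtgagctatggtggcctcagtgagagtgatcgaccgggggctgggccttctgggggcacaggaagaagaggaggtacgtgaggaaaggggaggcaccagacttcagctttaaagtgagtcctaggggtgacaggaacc
Fas: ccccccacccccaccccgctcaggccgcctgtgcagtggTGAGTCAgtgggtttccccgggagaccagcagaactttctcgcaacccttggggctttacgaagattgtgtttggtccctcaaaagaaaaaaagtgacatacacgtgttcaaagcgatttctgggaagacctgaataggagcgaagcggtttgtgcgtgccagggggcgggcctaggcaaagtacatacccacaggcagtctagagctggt
The Tnfsf14 window held an AP-1 match from 160 to 154 bases and an NFAT match from 146 to 141 bases before the start, the Fas window an AP-1 match from 211 to 205 bases, and the Fasl window no match to these letters. Of 29 members with a promoter in the table, 5 held the AP-1 motif (17.2%, against 7.82% of 27025 genes), 6 the NFAT core (20.7%, against 20.9%), 3 the kappaB motif (10.3%, against 4.46%; Ltb, Tnfrsf8 and Tnfrsf9) and 0 the T-box motif (3.84% of all genes). A match describes the letters of the window and does not show that a factor binds there.

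In thymus, the family was nearly alike between genotypes, with the exception of the B cell receptor Tnfrsf13c. Of 34 members measured on both thymus arrays, 1 was at least 2-fold higher in deltaDC, against 0.928% of all genes measured, and 0 were 2-fold lower, against 0.667%. The members' median difference was -0.008 and that of all genes 0.05. The ligands leaned downwards by small amounts: 11 of 13 measured ligands lay below 0, with a median of -0.39, whereas 5194 of 13038 genes lay below 0.

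Tnfrsf13c is the BAFF receptor, on which mature B cells depend for survival. Its dimmer probe was below background on every array. The brighter probe at chr15:82052203-82052262 (minus strand, mm9) read 42.6, 58.3, 72.4 and 173, and the deltaDC thymus array was more than 2-fold above every other array, as holds for 0.179% of genes above background on all 4. The thymus difference was 1.26 ± 0.19, or 2.39-fold, and became 0.81 with the normexp background. Genes of B cells moved with it: 6 of 10 measured B cell genes were at least 2-fold higher in deltaDC thymus, with a median of 1.52, while Pax5, the transcription factor that keeps B cell identity, was below background on every array. On the same array, 4 of 4 measured erythroid genes (summed signals 2096, 5815, 4116 and 17130; median difference in thymus 2.29) and 5 of 6 measured neutrophil genes (median 1.12) were also 2-fold higher than in WT. The part of these cells in the Tnfrsf13c signal was not tested. Tnfrsf13b (TACI), another receptor for BAFF, was bright and even at 7703, 7560, 7809 and 8888.

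Of the ligands in thymus, Tnfsf13b (BAFF itself) read 40.6, 41.4, 59.1 and 33.3 and had the lowest difference, -0.83 ± 0.38, at signals where repeat spots scatter most. Tnfsf11 (RANKL), through which thymocytes promote the maturation of thymic epithelium, read 459.8, 473, 602 and 384. Its thymus difference was -0.65 ± 0.11, while the spleen arrays were alike. Tnfsf10 (TRAIL, a death ligand) read 1275, 1317, 1022 and 778, a thymus difference of -0.39 ± 0.10. Fasl and Lta were the ligands above 0, at 0.50 and 0.02.

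Between organs, the decoy receptors Tnfrsf22, Tnfrsf23 and Tnfrsf26 and the TNF receptor Tnfrsf1a were lower in thymic than in splenic Tregs, Fas and the costimulatory receptors Tnfrsf4 and Tnfrsf18 were somewhat higher, and several receptors and ligands of antigen-presenting cells were detected in thymus but not in WT spleen. In WT, 29 members were measured in both organs: 0 were at least 2-fold higher in thymus, against 6.52% of all genes, and 4 were 2-fold lower (Fasl, Tnfrsf22, Tnfrsf23 and Tnfrsf26), against 3.03%. Of 6 members above background in 1 WT organ only, the bound reached 2-fold for 4, all higher in thymus. Among all genes above background in only 1 WT organ, whichever it was, 31.3% reached a 2-fold bound towards thymus. In deltaDC, 34 members were measured: 3 were at least 2-fold higher in thymus (Cd40, Tnfrsf13c and Tnfsf4), against 5.37%, and 5 were 2-fold lower (Fasl, Tnfsf14, Tnfrsf23, Tnfsf9 and Tnfrsf11a), against 6.15%. In deltaDC the only member above background in 1 organ was Tnfrsf19, which was at least 2.13-fold higher in thymus. Among all genes above background in only 1 deltaDC organ, whichever it was, 30.5% reached a 2-fold bound towards thymus. Bounds towards spleen are not counted in the 31.3% and 30.5%. The organ comparisons use the same arrays as the genotype comparisons, so an array that stands apart enters 2 of the 4.

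The decoy receptors of the chromosome 7 cluster were lower in thymus in both genotypes. Tnfrsf26, Tnfrsf22 and Tnfrsf23 lie in a row there, with 32.6 kb and 25.0 kb between their probes; Tnfrsf22 and Tnfrsf23 bind TRAIL without passing on a death signal. Tnfrsf26 read 1015, 852, 425 and 469, with organ differences of -1.26 ± 0.10 in WT and -0.86 ± 0.11 in deltaDC. Tnfrsf23 read 110.1, 162, 43.6 and 38.2, with differences of -1.34 ± 0.38 and -2.09 ± 0.38. Both thymus arrays were below both spleen arrays for each of the 3 genes. Tnfrsf22 read 237, 199, 103 and 150.2, a difference of -1.20 ± 0.15 in WT and -0.41 ± 0.19 in deltaDC, while its second probe gave only -0.45 and -0.10. The second probe of Tnfrsf23 was below background on every array. With normexp, the WT differences of Tnfrsf22 and Tnfrsf23 fell below 2-fold, to -0.93 and -0.80. Because these genes are close copies of one another, a probe may also bind a neighbour's RNA.

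The signalling death receptors differed less. Tnfrsf1a, the death-domain receptor of TNF, read 1945, 2221, 1288 and 1385, lower in both thymus arrays, with organ differences of -0.60 ± 0.03 in WT and -0.68 ± 0.03 in deltaDC. Tnfrsf10b, the mouse TRAIL receptor with a death domain, read 465, 474, 348 and 279, with both thymus arrays below both spleen arrays. Fas was higher in thymus, by 0.34 ± 0.06 in WT and 0.67 ± 0.06 in deltaDC. Tnfrsf21 (a death receptor also found on neurons) read 4.14 (not above background), 17.4, 34.4 and 29.7, close to the background limit throughout.

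Of the ligands, Fasl was lower in thymus by 2.97-fold in WT and 8.93-fold in deltaDC, and Tnfsf14 was 5.79-fold lower in deltaDC only, with a WT difference of 0.24 ± 0.11 the other way. Tnfsf9 was 2.26-fold lower in deltaDC thymus and Tnfrsf11a 2.06-fold, both having their highest signal on the deltaDC spleen array. Tnfsf4, the ligand of Tnfrsf4, was dim at 4.46 (not above background), 29.3, 65.2 and 60.8, at least 3.34-fold higher in WT thymus than in WT spleen and 2.07-fold higher in deltaDC thymus than in deltaDC spleen. The log2 difference in deltaDC, 1.05 ± 0.38, was 0.97 with median scaling and 0.44 with normexp. Cd40 was at least 8.17-fold higher in WT thymus and 3.15-fold higher in deltaDC thymus. With normexp, differences between the deltaDC organs also fell below 2-fold for Cd40 (from 1.65 to 0.89), Tnfrsf13c (1.57 to 0.94), Tnfrsf11a (-1.04 to -0.71) and Tnfsf9 (-1.17 to -0.97), so that 0 members were 2-fold higher in thymus there. Cd70 and Ltbr had bounds of at least 10.4-fold and 2.16-fold in WT, where normexp gave log2 differences of 1.29 for Cd40, 1.48 for Cd70, 0.45 for Ltbr and 0.66 for Tnfsf4. Of the 9 conventional dendritic cell genes, 5 were above background in WT thymus but not in WT spleen with a bound of 2-fold or more, among them Itgax (CD11c) at 6.52 (not above background), 93.8, 212 and 173. Both genes of that list measured in the 2 WT organs, Batf3 and Cd86, were lower in thymus, at -0.74 and -0.32. The 5 B cell genes measured in both WT organs had a median of 0.44, with another 5 above background in WT thymus only and a bound of 2-fold or more. Their part in the signals of Cd40, Cd70, Ltbr and Tnfsf4 was not tested.

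**Figure D4:**
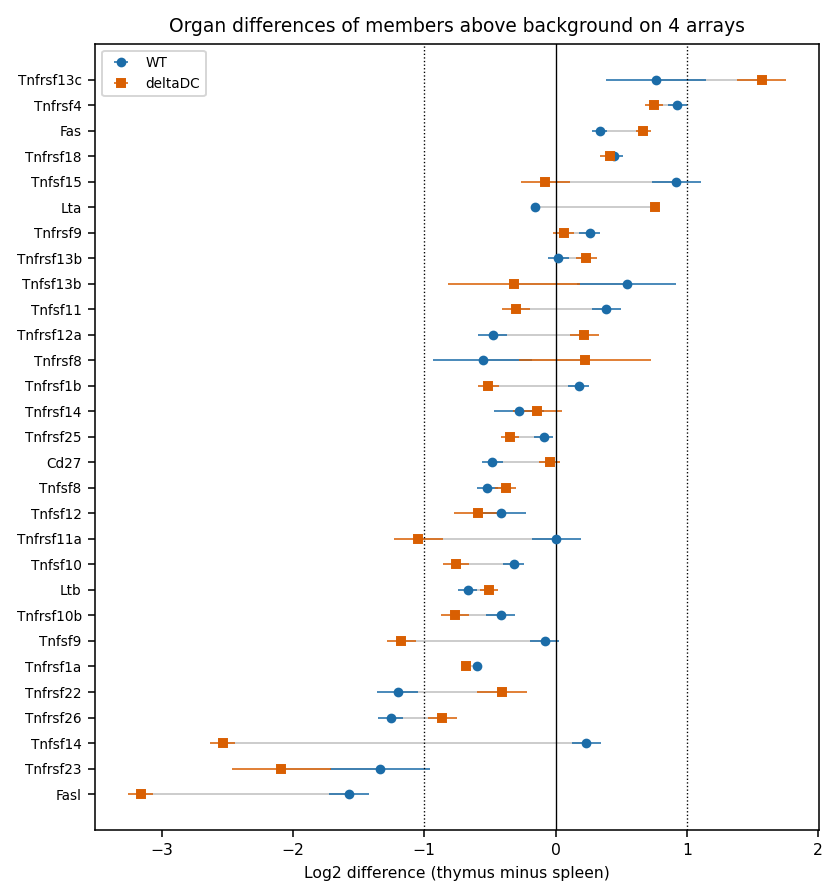
Log2 difference between thymus and spleen for the 29 members above background on all 4 arrays, in WT (circles) and deltaDC (squares), ordered by the average of both; bars are spot errors and dotted lines mark 2-fold. Fasl, Tnfrsf23, Tnfrsf26, Tnfrsf22 and Tnfrsf1a lie below 0 in both genotypes and Tnfrsf4, Tnfrsf18, Fas and Tnfrsf13c above, while Tnfsf14 lies at 0.24 in WT and -2.53 in deltaDC.

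All 8 receptors of T cell costimulation were above background on every array, and 0 of 8 reached 2-fold in each of the 4 comparisons. Among all genes measured, 8.41% differed 2-fold either way between genotypes in spleen and 1.6% in thymus, and 9.54% between organs in WT and 11.5% in deltaDC, so that 0 of 8 is near the background. Their spleen differences ran from -0.71 to 0.82, a wider range than the -0.25 to 0.56 of the 6 death and decoy receptors measured. The lowest was that of the dim Tnfrsf8, with a spot error of 0.38, and the next lowest that of Cd27, at -0.36. Tnfrsf4 read 42800, 55260, 81510 and 92970, highest in both thymus arrays, with organ differences of 0.93 ± 0.07 in WT and 0.75 ± 0.07 in deltaDC. The WT difference passed 2-fold under 3 of the 5 other treatments of the signals, at 1.25 after quantile normalization, 1.32 in the authors' deposited matrix and 1.003 with normexp. Tnfrsf18, whose probe lies 12.2 kb from that of Tnfrsf4 on chromosome 4, had the same order of arrays at 30580, 35470, 41690 and 47190, with organ differences of 0.45 ± 0.07 and 0.41 ± 0.07. Tnfrsf25 (DR3, the receptor of the ligand Tnfsf15, through which Tregs can be expanded) read 32610, 37210, 30620 and 29300, and its organ and genotype differences stayed within 0.35 on the log2 scale.

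Tnfrsf9, an activation-induced receptor, read 2215, 1991, 2649 and 2077 at its brighter probe and 972, 1494, 1825 and 2456 at the other. The probes disagreed in sign, with -0.15 against 0.62 in spleen and -0.35 against 0.43 in thymus, so no direction can be given for this gene between genotypes. Tnfrsf8 (CD30) was dim at 50.2, 30.7, 34.1 and 35.9, and its log2 differences carried spot errors of up to 0.50. Tnfrsf14 and Cd27, given above, had differences under 0.5 in each comparison.

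A linear model with genotype and organ as additive terms (limma, 13491 genes above background on at least 2 arrays, 1 residual degree of freedom) called 0 of the 34 members tested by organ and 0 by genotype at a Benjamini-Hochberg adjusted p of 0.05, against 0.474% and 0.0% of all genes. At an unadjusted p under 0.05, 10 of the 34 members passed for organ (20.2% of all genes did) and 0 for genotype (4.37%). The lowest adjusted p for organ belonged to Tnfrsf23, at 0.148 with a fitted difference of -1.71, followed by Tnfrsf26 at 0.159 and Tnfrsf4 at 0.162, and the lowest for genotype was 0.806. This model assumes that a genotype difference is equal in both organs, so Tnfsf14, whose difference was 2.37 in spleen and -0.40 in thymus, counts there as scatter.

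Downstream of the receptors, few listed genes differed 2-fold. All 24 TRAF adaptors, kinases and ubiquitin ligases of the pathway were above background on every array, and 0 differed 2-fold between genotypes (8.41% of all genes did in spleen and 1.6% in thymus), with medians of 0.005 in spleen and 0.04 in thymus. Traf5, an adaptor of costimulatory receptors, was the only one that differed 2-fold between organs: it read 7067, 4974, 2446 and 2290, with differences of -1.53 in WT and -1.12 in deltaDC. Among all genes measured, 9.54% differed 2-fold between the WT organs and 11.5% between the deltaDC organs. Of 14 NF-kappaB subunits and inhibitors, 13 were measured in each comparison and 0 differed 2-fold, with a spleen median of 0.24 against -0.005 for all genes. Nfkb2, the precursor of the alternative pathway's subunit, came closest, with 2920, 5791, 5649 and 6309, WT spleen being the low array and the spleen difference 0.99. Of 10 death pathway genes, only Mlkl, the executor of necroptosis, differed 2-fold between genotypes. In spleen this was 1 of 10, near the 8.41% of all genes. Mlkl read 46.1, 131, 51.8 and 73.7, a spleen difference of 1.51. Its WT spleen signal lay under 50, where repeat spots scatter most.

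Family genes whose names fall outside the naming rule were mostly dim, and 2 of 7 were measured on both spleen arrays. Tnf, the founding ligand, read 2188, 1754, 1125 and 720.1, lower in both thymus arrays, with organ differences of -0.96 in WT and -1.28 in deltaDC. Cd40lg, the ligand of Cd40, was near the background limit at 19.2 (not above background), 35.8, 25.3 and 15.3 (not above background). Edar, a receptor of skin appendage development, was above background in thymus only, at 20.6 in WT and 76.7 in deltaDC, a difference of 1.89.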

How the data were processed

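Single-colour Agilent arrays of sorted Treg RNA, 1 array for each of 4 groups, were used. RNA integrity numbers were 8.4 to 9.9 and 10 ng of RNA was labelled, per the labels' protocols. The deposited files hold intensity values per spot, already background-subtracted, with yes or no flags for spots above background, saturated or outlying, written by Agilent Feature Extraction 10.7.3.1, per the file headers. The authors also deposited a matrix of log2 values whose normalization is not given in the sources used here: its columns have medians of 4.10, 4.11, 4.15 and 4.10 and correlate best with their own arrays (r = 0.996 across spots, which are not independent replicates), so scale and direction match, while its centring stays unknown.

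Control and outlier spots were left out. Signals were log2-transformed, set to a common 75th percentile per array, averaged over the spots of a probe, and the brightest probe by mean over the 4 arrays stood for a gene. Of 55681 probes, 27509 were named by accession and 3549 by symbol through RefSeq, giving 22297 named genes, of which 22296 were compared. Python 3.11.15, pandas 2.3.3, R 4.3.3 and limma 3.58.1 were used. A bound sets the bright signal against the higher of the dim signal and the array's lowest signal above background. The number of arrays limits the precision: there are no biological replicates. Probe coordinates (mm9) are those of the files; the promoter table is RefSeq on GRCm38.p6, and 29 members matched it. Exon or UTR positions of probes, protein sequences and Tnfsf13 were not analysed here.

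All members were accounted for. Signals on all 4 arrays are given for those at least 2-fold different in a comparison and for receptors with a known Treg role; some others were added where a result turns on them. The members, lists and thresholds were chosen with earlier results of these data known. Alternatives were normexp background correction with an offset of 50, quantile normalization, median scaling, the deposited matrix, the median over a gene's probes, other filters and a 1.5-fold limit.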

Additional observations from a re-analysis of the deposited data

Results flagged for a closer look

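3 ligands were higher in deltaDC than WT in spleen and lower in thymus, by at least 0.3 on the log2 scale and more than 2 spot errors in each organ. The share of all genes that meets this rule is not given here, so the 3 cannot be called more than that share. The difference between the organs was not tested, since each group is 1 array, and the genotype differences of the 2 organs share no array. Tnfsf14 differed by 2.37 in spleen and -0.40 in thymus, a gap of 2.77 on the log2 scale. Tnfsf9 differed by 0.62 and -0.47, a gap of 1.09. Tnfsf15, the ligand of Tnfrsf25, read 59.2, 83.2, 112 and 78.8 in the order used above and differed by 0.49 and -0.51, a gap of 0.998. Each of the 3 kept both signs under normexp, quantile normalization, median scaling, the deposited matrix and the median over probes.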

How the results depend on the processing

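No paired analysis was possible because each group is 1 array and the labels carry no replicate numbers, and leaving out an array would leave no residual degree of freedom. The counts of members at least 2-fold different were 3 of 29 (spleen genotype), 1 of 34 (thymus genotype), 4 of 29 (WT organs) and 8 of 34 (deltaDC organs). Of all genes measured, 8.41%, 1.6%, 9.54% and 11.5% were. Without the filter on dim genes the first 3 became 8, 2 and 11 of 38, and Tnfrsf19, at 1.44, was added between the deltaDC organs. The shares of all genes without it were 13.9%, 7.42%, 14.8% and 16.0%. At a 1.5-fold limit the counts were 8, 3, 9 and 18, against 18.4%, 5.91%, 23.1% and 23.8% of all genes measured. Normexp gave 2 for the genotypes in spleen, 0 in thymus and 3 between deltaDC organs, against 4.53%, 0.43% and 7.41% of all genes measured. Its offset of 50 shrinks differences of dim genes by construction, those behind the bounds included (Cd40 in spleen 2.49 to 0.35, Cd70 3.67 to 1.59). Of 16 measured 2-fold differences none changed sign under the 5 alternatives for signals; 9 dropped below 2-fold with normexp, 1 with median scaling (Tnfsf4, 0.97), 1 with the median over probes (Tnfrsf22, -0.82) and 0 with quantile normalization or the deposited matrix. Members called by the additive model were 0 under each of its 8 settings; calls by organ over all genes were 64, 213 with normexp and 0 under the other 6. Members near the background limit, such as Ltbr, Tnfrsf21, Tnfsf4 and Tnfsf13b, have spot errors of up to 0.50 in a log2 difference.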
